A study of Caenorhabditis elegans with 10 samples.

Results

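Glutathione transferases join the tripeptide glutathione to reactive compounds, and in Caenorhabditis elegans they form a large family of gst, gsto and gstk genes. The 33 genes described here are those with a probe set annotated to that 1 gene and a symbol of the gst, gsto or gstk series, out of 45 such genes on the array. The other 12 (gst-4, gst-5, gst-10, gst-12, gst-13, gst-14, gst-30, gst-31, gst-38, gst-39, gst-40 and gsto-2) were left out by name. Those 12 were all higher in the wdr-23 mutant, by log2 changes of 2.65 (gst-13) to 7.22 (gst-30), so the 33 are a family without many of its strongest responders. Each of the 33 had a single probe set annotated to it alone, so no choice by highest mean signal was needed. Probe sets annotated to several genes were not considered. All 33 symbols were the same in the RefSeq gene table of assembly WBcel235.

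RNA came from whole worms, 200 to 500 a sample, grown from synchronised first-stage larvae until most had reached the L4 stage. The 3 groups were wdr-23 mutants under RNAi of skn-1 (n = 3), wdr-23 mutants under control RNAi (n = 4) and the N2 wild-type strain with the control RNAi (n = 3). RNAi was given by feeding HT115 bacteria that make double-stranded RNA, and the agar of all groups held carbenicillin (50 ug/ml) and lactose (0.2%). The sample labels give the wdr-23 allele as tm1718 and the series' design text gives it as tm1817. N2 with skn-1 RNAi was not analysed here, so the effect of skn-1 RNAi was measured in the mutant alone. Each value is a MAS5 signal, the array maker's linear estimate of a transcript's brightness, scaled by the authors to 1 level on every array.

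The cytosolic transferases conjugate glutathione to electrophiles, such as drugs and the aldehydes made when lipids oxidise, and the conjugates are then exported from the cell. Omega-class enzymes (gsto) mainly reduce oxidised substrates, kappa-class enzymes (gstk) reside in mitochondria and peroxisomes, and zeta-class enzymes act in the breakdown of tyrosine. In the worm many gst genes are switched on in the intestine and other tissues by SKN-1, the relative of mammalian Nrf factors. WDR-23, built of WD repeats, brings SKN-1 to a cullin ubiquitin ligase and so keeps its level low.

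Array medians ran from 113 to 139.7, and precision is limited by there being 3 or 4 arrays a group. The wdr-23 signal itself was 901.7 ± 18.6 (SD, n = 3) in the mutant with skn-1 RNAi, 3259 ± 453 (SD, n = 4) in the mutant on control RNAi and 865.4 ± 151 (SD, n = 3) in N2. It was higher in the mutant than in N2 on control RNAi (log2 change 1.89, adjusted p = 1.14e-08) and lower with skn-1 RNAi than with control RNAi in the mutant (-1.82, adjusted p = 2.9e-08), and between skn-1 RNAi mutants and N2 it was at 0.07 (95% interval -0.23 to 0.37). Where its probes lie relative to the mutation is not given, so it does not check the genotype. The skn-1 signal was 257.2 ± 28 (SD, n = 3) with skn-1 RNAi and 474 ± 70.1 (SD, n = 4) with control RNAi in the mutant, a log2 change of -0.83 (adjusted p = 0.000708). In whole animals, fewer cells of a type and less RNA per cell cannot be told apart.

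Several lists of tissue markers moved between the groups. Over all tested probe sets 17.4% were called higher and 10.1% lower in the mutant against N2, and 9.99% were called higher and 12.6% lower with skn-1 RNAi against control RNAi in the mutant. Of 12 epidermis and moulting genes, 9 were higher and 0 lower in the mutant, and 0 were higher and 9 lower with skn-1 RNAi, with median log2 changes of 1.01 and -0.78. Their summed signal was 26900 to 31720 with skn-1 RNAi, 29690 to 32790 in the mutant on control RNAi and 22540 to 29660 in N2. Most of that sum was the collagen gene dpy-13 (means 22540, 18560 and 19770 in the same order of groups), which was not called, so the sums show less change than the list's median. Of 9 intestine markers, 2 were higher and 2 lower in the mutant, and 2 were higher and 4 lower with skn-1 RNAi. Summed intestine signals were 27680 to 28780 with skn-1 RNAi, 31840 to 34480 in the mutant on control RNAi and 31270 to 34560 in N2. Bright genes weigh most in these sums, above all mtl-2 (means 8723, 10410 and 11140 in the same order of groups). The sums thus hide opposite changes in the mutant against N2, a rise of pept-1 (1852, 4001 and 1886) and a fall of cpr-6 (7484, 5417 and 7108). Of 5 yolk genes, 0 were higher and 4 lower in the mutant, and 4 were higher and 0 lower with skn-1 RNAi. Of 11 sperm genes, 6 were higher and 0 lower in the mutant, and 0 were higher and 1 lower with skn-1 RNAi. Of 9 germ line genes, 5 were higher with skn-1 RNAi, and their log2 changes in the mutant against N2, none past the test, ran from -0.29 to 0.08. Summed germ line signals were 21410 to 22410 with skn-1 RNAi, 16000 to 17410 in the mutant on control RNAi and 17290 to 19380 in N2. Of 6 neuron genes, 1 was higher and 0 lower in the mutant, and 0 were higher and 2 lower with skn-1 RNAi, while of 6 muscle genes 1 was higher in the mutant and 0 were called with skn-1 RNAi. On every list 0 genes stayed under 19 units on all arrays. The part of tissue make-up and developmental stage in the transferase results was not tested.

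The first comparison, wdr-23 mutants against N2 on control RNAi, asks what the wdr-23 mutation does with skn-1 left in place. Of the 33 transferases, 30 were bright enough to test, and 16 of these rose and 2 fell at an adjusted p under 0.05 (limma, Benjamini-Hochberg over all 15783 tested probe sets). Over all tested probe sets 17.4% were called higher and 10.1% lower (27.5% in all), beside 53.3% and 6.67% of the 30. The median log2 change of the 30 was 0.45, with 0.01 over all tested probe sets. Of the 16 that rose, 10 changed at least 2-fold, and the share of all tested probe sets that did so was not counted. On 18 of the 30 probe sets all mutant arrays were above all N2 arrays, as on 20.3% of all tested probe sets, and on 2 they were all below (13.6%). Because 12 responding genes had been set aside with their changes known, these shares do not describe the family as a whole. With median centring of the arrays, the median of all tested probe sets moved to -0.19, and 13 members were called higher and 4 lower. These were 43.3% and 13.3% of the members, beside 10.6% and 29.2% of all tested probe sets. Of all called probe sets 26.6% were then higher, in place of 63.4%. After quantile normalization that share of called probe sets was 49.7%. It called 14 members higher and 2 lower, beside 12.3% and 12.4% of all tested probe sets.

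The largest rise was in gst-16, from a probe set of the kind that can match related transcripts. Its signals were 766, 759 and 723 with skn-1 RNAi, 2801, 2159, 2223 and 2793 in the mutant on control RNAi, and 63.4, 74.7 and 89.5 in N2. No groups overlapped: the mutant on control RNAi was highest, the mutant with skn-1 RNAi was between and N2 was lowest. The log2 change between mutant and N2 was 4.73 (SE 0.13, adjusted p = 5.64e-14), a 26.5-fold rise after adding 19 units to each signal. Adding 19 keeps dim signals from dominating and makes such a fold smaller than the plain ratio of signals.

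Next came gst-2, with 293, 277 and 436 with skn-1 RNAi, 1021, 914, 1197 and 812 in the mutant on control RNAi, and 76.97, 46.2 and 40.2 in N2. The mutant arrays lay above all others, and the 13.9-fold rise over N2 was a log2 change of 3.79 (SE 0.19, adjusted p = 1.4e-10). For gst-20 the signals were 956, 762 and 827 with skn-1 RNAi, 3112, 3447, 3056 and 3091 in the mutant on control RNAi, and 303, 252 and 233 in N2. Again no groups overlapped, and the log2 change between mutant and N2 was 3.51 (SE 0.12, adjusted p = 6.75e-13). The gst-6 probe set gave 814, 883 and 870 with skn-1 RNAi, 4443, 4947, 5283 and 4919 in the mutant on control RNAi, and 416, 406 and 489 in N2. Its rise was 10.8-fold (log2 change 3.43, SE 0.11, adjusted p = 2.2e-13), and its skn-1 RNAi arrays lay closer to N2 than to the mutant on control RNAi.

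The dimmest of the large responders was gst-8, with 89.5, 80.6 and 113 with skn-1 RNAi, 319, 259, 384 and 389 in the mutant on control RNAi, and 34.8, 13.5 and 10.06 in N2. Its N2 signals are near the added 19 units, so the 9.51-fold rise (log2 change 3.25, SE 0.21, adjusted p = 4.25e-09) is smaller than the ratio of signals. For gst-3 the signals were 131, 115 and 124 with skn-1 RNAi, 366, 279, 382 and 332 in the mutant on control RNAi, and 51.6, 45.5 and 37.5 in N2. Its log2 change between mutant and N2 was 2.49 (SE 0.15, adjusted p = 1.43e-09), without overlap between any of the groups.

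A different balance was seen in gst-7, a gene used as a readout of SKN-1 activity. It gave 5904, 7519 and 6122 with skn-1 RNAi, 8984, 9112, 10340 and 9312 in the mutant on control RNAi, and 2446, 2263 and 2463 in N2. The rise between mutant and N2 was 3.92-fold (log2 change 1.97, SE 0.10, adjusted p = 2.03e-10), and the skn-1 RNAi arrays stayed well above N2. The gst-29 signals were 303, 313 and 316 with skn-1 RNAi, 245, 311, 295 and 274 in the mutant on control RNAi, and 75.3, 109.3 and 114.5 in N2. Both mutant groups overlapped each other and lay above N2, and the log2 change between mutant and N2 on control RNAi was 1.35 (SE 0.15, adjusted p = 2.97e-06).

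Smaller rises came from 8 more genes. The log2 changes were 1.32 for gst-24, 1.16 for the dim gst-32, 0.99 for the omega-class gene gsto-3, 0.78 for gst-1 and 0.77 for gst-28, with adjusted p values of at most 0.00407. The pi-class gene gst-1, studied in dopamine neurons, was at 8703 ± 555 (SD, n = 4) in the mutant on control RNAi and 5056 ± 231 (SD, n = 3) in N2. The last 3 were the zeta-class gene gst-43 (0.43, adjusted p = 0.046), gst-36 (0.39, adjusted p = 0.0128) and gst-22 (0.38, adjusted p = 0.0407), and these calls were less firm. With median centring of the arrays all 3 calls ended (0.23, 0.19 and 0.18). Quantile normalization ended those of gst-43 (0.39) and gst-22 (0.24), as did testing the dim probe sets too and a replicate block, and that of gst-43 was also lost without the intensity trend and without suffixed probe sets. The gst-36 call also ended without N2 replicate 1 (0.36) or N2 replicate 2 (0.34). That of gst-22 ended without any of wdr-23 control RNAi replicates 2, 3 and 4, wdr-23 skn-1 RNAi replicates 1 and 2, and N2 replicates 1 and 3 (0.29 to 0.40). That of gst-43 ended without any wdr-23 control RNAi array, wdr-23 skn-1 RNAi replicate 2, or N2 replicate 1 or 2 (0.31 to 0.44).

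**Figure D1:**
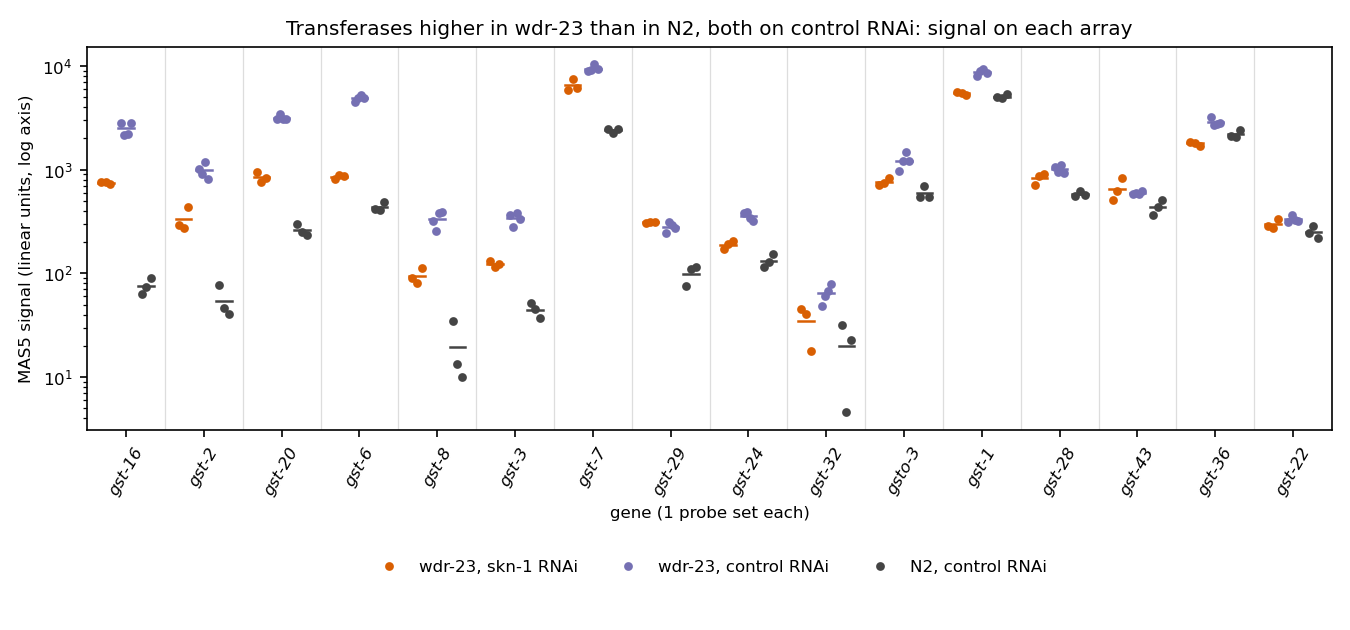
MAS5 signal (log axis) of the 16 transferases that rose in wdr-23 mutants against N2 on control RNAi, with 1 point per array and a line at each group's mean; 3 arrays of wdr-23 skn-1 RNAi, 4 of wdr-23 control RNAi and 3 of N2 run left to right within a gene. In gst-16 the groups stand apart (means 749, 2494 and 75.9), whereas in gst-29 the skn-1 RNAi mean of 310.4 is close to the 281 of the mutant on control RNAi and above the N2 mean of 99.7.

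Only gst-19 and gst-9 fell among the 30, and both were dim and on probe sets that can match related transcripts. For gst-19 the signals were 33.2, 49.6 and 38.6 with skn-1 RNAi, 43.6, 23.5, 7.08 and 31.2 in the mutant on control RNAi, and 122.1, 112.7 and 127.8 in N2. Every mutant array of either RNAi lay below every N2 array, and the log2 change on control RNAi was -1.69 (SE 0.24, adjusted p = 7.39e-05). The gst-9 probe set gave 37.5, 54.3 and 64.1 with skn-1 RNAi, 34.9, 52.5, 37.3 and 32.5 in the mutant on control RNAi, and 71.1, 89.6 and 92.4 in N2. Its log2 change between mutant and N2 on control RNAi was -0.83 (SE 0.19, adjusted p = 0.00411). With median centring 4 members fell, as gst-26 (-0.34) and the kappa-class gene gstk-1 (-0.39) joined them, while 29.2% of all tested probe sets fell.

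The second comparison was made within the mutant, between RNAi of skn-1 and the control RNAi, and asks how far the transferase signals depend on skn-1. Of the 30, 12 fell and 0 rose, while 12.6% of all tested probe sets were called lower and 9.99% higher (22.5% in all). All 12 left-out transferases fell too, so these shares do not describe the whole family either. On 15 of the 30 all skn-1 RNAi arrays were below all control RNAi arrays (17.5% of all tested) and on 1 they were all above (14.9%). With median centring 11 members were called lower and 2 higher, beside 8.29% and 21.9% of all tested probe sets. Of all called probe sets 72.6% were then higher, in place of 44.3%. Unadjusted, gstk-2 was the only member higher at p under 0.05. The median log2 change was -0.23, with -0.01 over all tested probe sets. The skn-1 transcript was lowered and not removed, so the values hold for that level of knockdown. This comparison and the first share the 4 mutant arrays on control RNAi, so a deviation of those arrays moves both in opposite directions.

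The strongest fall was in gst-6, which was 5.61-fold lower with skn-1 RNAi than with control RNAi (log2 change -2.49, SE 0.11, adjusted p = 3.39e-11). Next were gst-20 (-1.89, SE 0.12, adjusted p = 5.9e-09), gst-16 (-1.70, SE 0.13), gst-8 (-1.65, SE 0.21), gst-2 (-1.52, SE 0.19) and gst-3 (-1.33, SE 0.15). In each of these 6 genes every skn-1 RNAi array was below every mutant array on control RNAi. Moderate falls were measured for gst-24 (-0.86), gst-1 (-0.67), gst-36 (-0.66), gsto-3 (-0.66) and gst-7 (-0.54), with adjusted p values of at most 0.00333. The last call was gst-41, which did not pass the test between mutant and N2. Its suffixed probe set gave 105.4 to 137.3 with skn-1 RNAi and 166 to 210.5 with control RNAi (log2 change -0.52, adjusted p = 0.0235). The gst-41 call ended after quantile normalization (-0.38) and median centring (-0.37). It also ended without wdr-23 control RNAi replicate 1 (-0.48) or 2 (-0.47) or wdr-23 skn-1 RNAi replicate 1 (-0.41).

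Of the 16 that had risen, 5 were not called lower with skn-1 RNAi. Their log2 changes and 95% intervals were 0.14 (-0.17 to 0.45) for gst-29, 0.10 (-0.22 to 0.43) for gst-43, -0.15 (-0.43 to 0.13) for gst-22, -0.28 (-0.54 to -0.03) for gst-28 and -0.67 (-1.23 to -0.11) for gst-32. The smallest called fall among the risers was that of gst-7 (-0.539, 95% interval -0.755 to -0.324). The intervals of gst-29 and gst-43 lay above the gst-7 interval, and those of gst-22, gst-28 and gst-32 overlapped it. Whether these genes fell less than gst-7 was not tested. The gst-32 fall was called without N2 replicate 2 (-0.67). Similarly gst-21 (-0.65) was called without wdr-23 control RNAi replicate 3 (-0.79) or N2 replicate 2 or 3 (-0.65).

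The third comparison, wdr-23 with skn-1 RNAi against N2, asks what remains different when both changes are present. Of the 30, 10 were higher and 1 lower, where 3.88% of all tested probe sets were called higher and 2.46% lower (6.34% in all). Of the 12 left-out transferases 11 were higher and 1 lower, so here too the shares are not those of the whole family. All skn-1 RNAi arrays were above all N2 arrays on 12 of the 30 (14.9% of all tested) and below them on 3 (11.4%). It shares its skn-1 RNAi arrays with the second comparison and its N2 arrays with the first. With median centring 48.1% of all called probe sets were higher, in place of 61.2%. It called 9 members higher and 1 lower, beside 3.02% and 3.26% of all tested probe sets. Largest was gst-16, still 8.15-fold above N2 (log2 change 3.03, SE 0.14, adjusted p = 2.96e-10). It was followed by gst-2 (2.27), gst-20 (1.63), gst-8 (1.60), gst-29 (1.49), gst-7 (1.43), gst-3 (1.16) and gst-6 (0.94), with adjusted p values of at most 0.000229. All skn-1 RNAi arrays lay above all N2 arrays in these 8 genes. The other calls were gstk-2 (0.59, adjusted p = 0.0241) and gst-28 (0.49, adjusted p = 0.031). Both ended after quantile normalization (0.50 and 0.44), without wdr-23 skn-1 RNAi replicate 2 (0.56 and 0.46) or 3 (0.55 and 0.43), and without N2 replicate 1 (0.62 and 0.46) or 2 (0.47 and 0.53). The gst-28 call ended with median centring (0.43) and without N2 replicate 3 (0.48) as well. The lower gene was gst-19 (-1.24, SE 0.26, adjusted p = 0.00762), whose call ended with 1 unit added in place of 19 (-1.57, adjusted p = 0.0538). Without wdr-23 skn-1 RNAi replicate 1 (0.70) or N2 replicate 3 (0.65), or with a replicate block, gst-43 was also called higher than N2 (0.54, adjusted p = 0.0642, with all arrays).

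**Figure D2:**
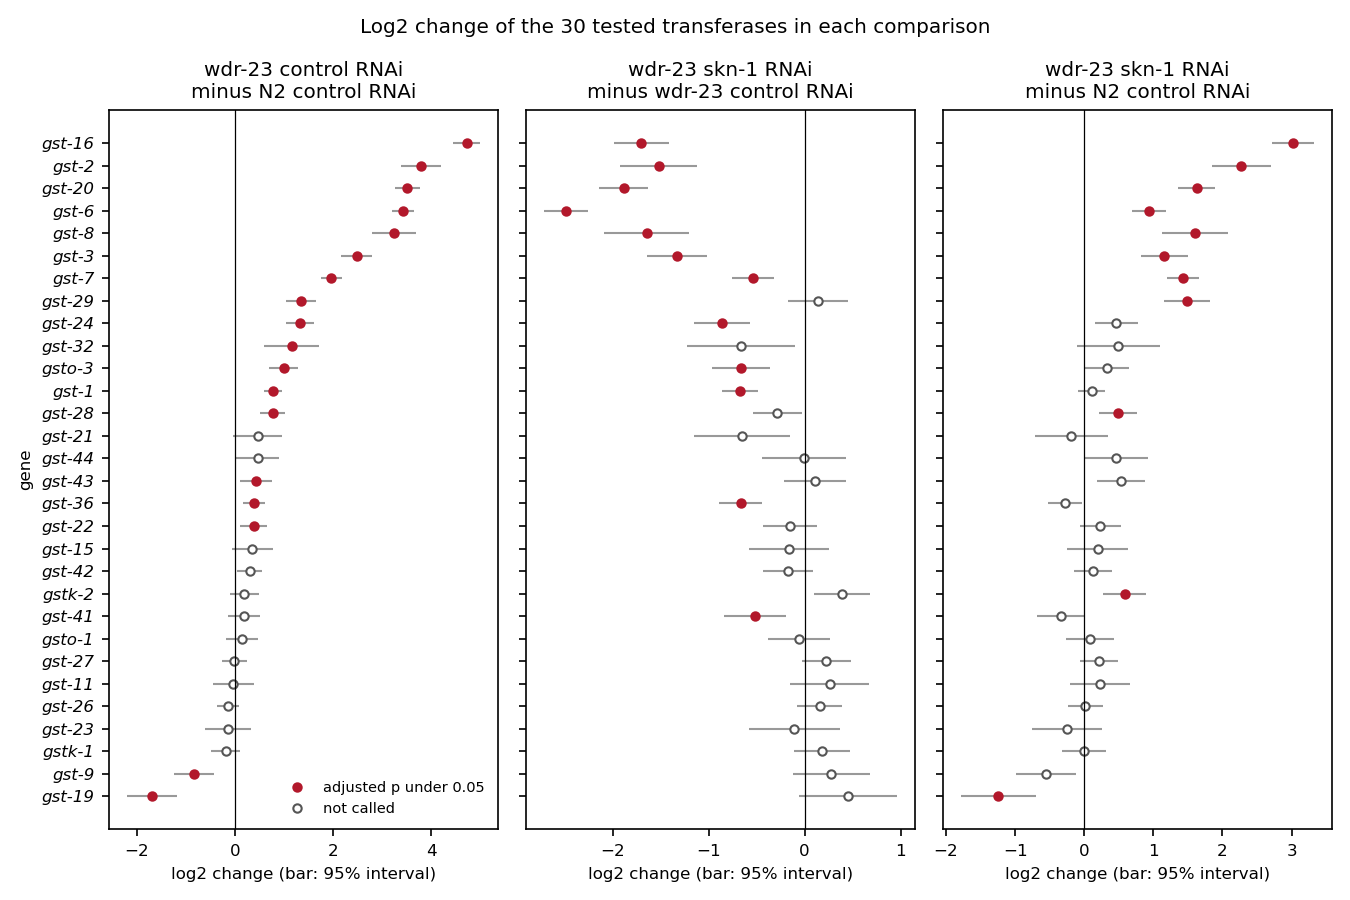
Log2 change (x axis) of each of the 30 tested transferases (y axis) in the 3 comparisons, with 95% intervals; filled points passed an adjusted p under 0.05. From left to right 16, 0 and 10 genes were called higher and 2, 12 and 1 lower, and gst-6 has the largest fall with skn-1 RNAi (-2.49).

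Read across the comparisons, the 30 genes fell into several patterns. How often each pattern occurs over all tested probe sets was not counted, and the comparisons share arrays, so the counts are descriptive. In 7 genes (gst-2, gst-3, gst-6, gst-7, gst-8, gst-16 and gst-20) the signal was higher in the mutant, lower with skn-1 RNAi and still above N2. In 4 genes (gst-1, gst-24, gst-36 and gsto-3) it was higher in the mutant and lower with skn-1 RNAi, and the difference between skn-1 RNAi mutants and N2 did not pass the test. Their log2 changes against N2 were 0.11 (95% interval -0.09 to 0.31), 0.46 (0.16 to 0.77), -0.28 (-0.52 to -0.04) and 0.33 (0.01 to 0.65), and the intervals of gst-24, gst-36 and gsto-3 did not include 0. In gst-28 and gst-29 it was above N2 with either RNAi, and in gst-19 it was below N2 with either RNAi. Only the mutant against N2 on control RNAi was called for gst-22, gst-32 and gst-43 (higher) and gst-9 (lower). For gst-41 only the fall with skn-1 RNAi was called, and for gstk-2 only the rise over N2 with skn-1 RNAi. In 10 genes no comparison was called.

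Many of these genes sit side by side. By gene order in the RefSeq table (WBcel235; the build behind the probes is not given), 18 of the 33 lay in 4 runs of transferase genes with at most 2 other protein-coding genes between neighbours. The first run, on chromosome II, was gst-6, gst-7, gst-8 and gst-9. Its first 3 genes rose in the mutant by log2 changes of 3.43, 1.97 and 3.25, and gst-9 at its end fell (-0.83). With skn-1 RNAi the same 3 fell by 2.49, 0.54 and 1.65 on the log2 scale, and gst-9 was at 0.28 (adjusted p = 0.31).

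The second run held 9 transferases on chromosome II, in the order gst-20, gst-24, gst-15, gst-14, gst-12, gst-16, gst-19, gst-17 and gst-18. Here gst-16, the strongest riser of the 33 (4.73), was next to gst-19, the strongest faller (-1.69). On its other side stood gst-12, one of the left-out genes, which rose by 5.76. The signals of gst-15, between gst-24 (1.32) and gst-14 (3.87, left out), did not pass the test (0.36, 95% interval -0.05 to 0.77). The probe sets of gst-16, gst-19 and gst-20 can match related transcripts, so signal shared between such neighbours cannot be told apart from their own. At the end of the run, gst-17 and gst-18 were too dim to test.

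In the third run, also on chromosome II, gst-26 and gst-27 were at -0.14 (95% interval -0.37 to 0.09) and -0.01 (-0.27 to 0.25) in the mutant against N2. Beside them gst-28 rose by 0.77 and gst-29 by 1.35, and the left-out gst-39 and gst-31 that follow rose by 3.195 and 3.98. The next gene of the family, gst-32, rose by 1.16, and gst-34 and gst-35 were not analysed here. With skn-1 RNAi the left-out gst-39 and gst-31 fell by 0.87 and 1.11 on the log2 scale. The 5 members in this run were not called lower, as most tested probe sets were not (12.6% were called lower). Of the 30 tested members, 18 were not called in this comparison. Among the 5 in the run, gst-28 (-0.28) and gst-32 (-0.67) had 95% intervals below 0. The intervals of gst-26 (0.155), gst-27 (0.22) and gst-29 (0.14) held 0. The fourth run, on chromosome IV, was gst-3, gst-2 and the left-out gst-4, whose promoter is often used to report SKN-1 activity. All 3 rose in the mutant, by 2.49, 3.79 and 3.21, and fell with skn-1 RNAi, by 1.33, 1.52 and 0.89 on the log2 scale.

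**Figure D3:**
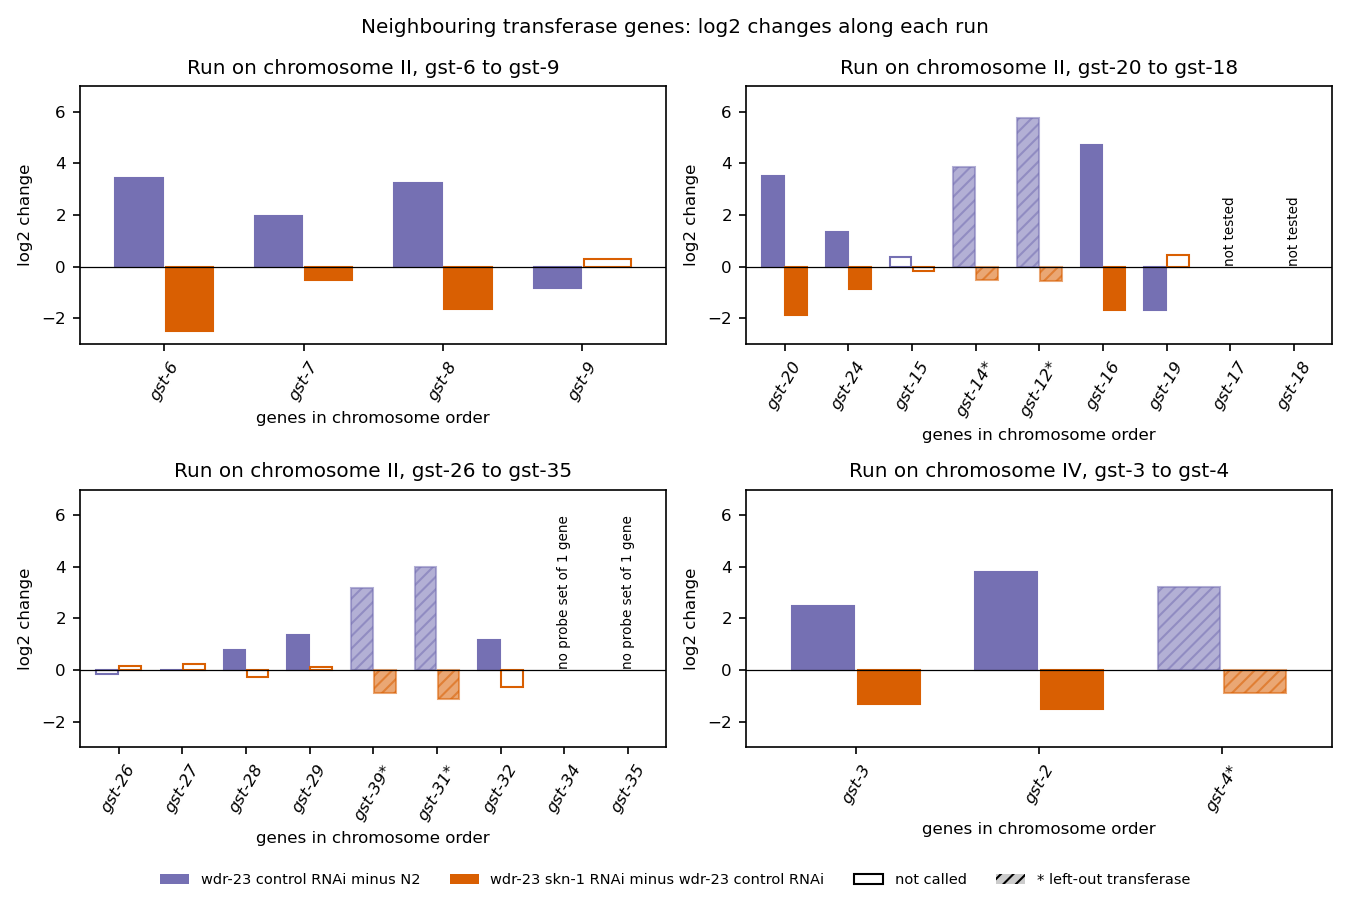
Log2 changes (y axis) of transferase genes in chromosome order (x axis) in the 4 runs; purple bars are wdr-23 against N2 on control RNAi, orange bars compare both RNAi treatments within the mutant (skn-1 over control), open bars were not called, and hatched bars with an asterisk are left-out genes. In the 9-gene run that starts at gst-20, gst-16 (4.73) and gst-19 (-1.69) stand next to each other with opposite changes.

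Of 7 genes of the omega, kappa and zeta classes or close to them, gsto-3 and gst-43 rose in the mutant (17.4% of all tested probe sets did) and gsto-3 fell with skn-1 RNAi (12.6%), so these counts are near the shares over all probe sets. Of the omega class, gsto-3 gave 704, 740 and 822 with skn-1 RNAi, 974, 1212, 1482 and 1199 in the mutant on control RNAi, and 549, 699 and 549.5 in N2. Its mutant arrays on control RNAi lay above all others. In contrast gsto-1, an intestinal gene that protects worms from oxidative stress, gave 411, 337 and 558 with skn-1 RNAi, 439, 461, 482 and 405 in the mutant on control RNAi, and 416, 350.2 and 442 in N2. All of its groups overlapped, and its log2 changes in the 3 comparisons lay between -0.06 and 0.15. The dim gene gst-44 (33.5, 41.5 and 42.8 with skn-1 RNAi, 31.3, 47.96, 37.2 and 42.3 in the mutant on control RNAi, and 35.6, 13.6 and 23.5 in N2) was not called in any comparison.

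For the kappa class, gstk-1 had 534, 511 and 642 with skn-1 RNAi, 444, 501, 433 and 599 in the mutant on control RNAi, and 567, 501 and 621 in N2. Its groups overlapped throughout. The other kappa gene, gstk-2, on a suffixed probe set, had 190.1, 216 and 219 with skn-1 RNAi, 152, 158, 154 and 152 in the mutant on control RNAi, and 139, 109.7 and 151 in N2. Its skn-1 RNAi arrays lay above the other 7 arrays. The log2 change against control RNAi in the mutant was 0.39 (SE 0.14, adjusted p = 0.05004), just outside the threshold. It was called after quantile normalization (0.51) and median centring (0.54), with 64 units added (0.32), without the intensity trend (0.39), and without N2 replicate 2 or 3 (0.39).

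The zeta class has gst-42 and gst-43. The maleylacetoacetate isomerase gene gst-42 gave 679, 795 and 744 with skn-1 RNAi, 842, 843, 772 and 887 in the mutant on control RNAi, and 568, 720.5 and 744 in N2. Its 4 mutant arrays on control RNAi lay above those of N2, yet the log2 change of 0.30 (95% interval 0.05 to 0.56) did not pass the test (adjusted p = 0.0731). For gst-43 the signals were 509, 619 and 830.1 with skn-1 RNAi, 579, 592, 579 and 628 in the mutant on control RNAi, and 367, 441 and 511 in N2. The spread with skn-1 RNAi was wide (SD 163 on a mean of 653), and its skn-1 RNAi arrays overlapped both other groups.

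**Figure D4:**
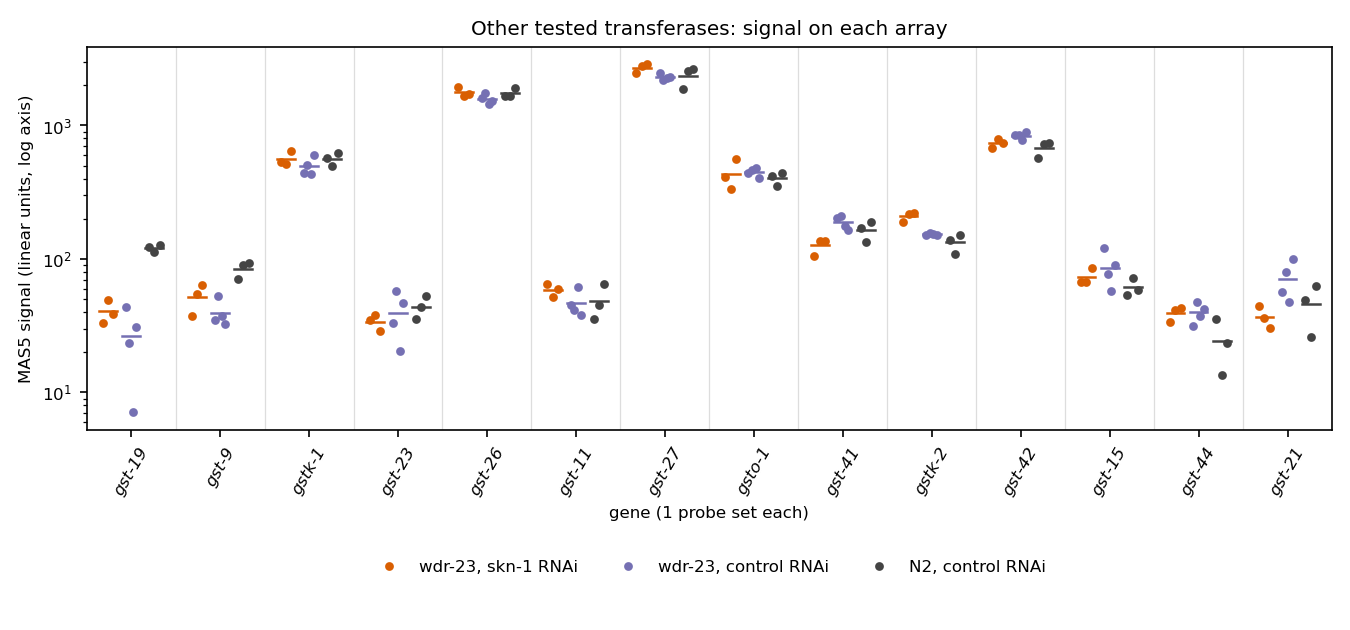
MAS5 signal (log axis) of the 14 other tested transferases, with 1 point per array and a line at each group's mean; 3 arrays of wdr-23 skn-1 RNAi, 4 of wdr-23 control RNAi and 3 of N2 run left to right within a gene. N2 lies above both mutant groups in gst-19 (mean 120.9), and skn-1 RNAi mutants lie above both other groups in gstk-2 (mean 209).

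The 10 genes called in no comparison were gst-11, gst-15, gst-21, gst-23, gst-26, gst-27, gst-42, gst-44, gstk-1 and gsto-1. Their log2 changes ran from -0.19 to 0.47 in the mutant against N2, from -0.65 to 0.26 with skn-1 RNAi against control RNAi, and from -0.25 to 0.46 in skn-1 RNAi mutants against N2. The ends of their 95% intervals farthest from 0 were 0.96, -1.15 and 0.93 in the same order of comparisons. The precise ones included gst-26, at 1767 ± 146 (SD, n = 3) with skn-1 RNAi, 1586 ± 132 (SD, n = 4) in the mutant on control RNAi and 1747 ± 144 (SD, n = 3) in N2. On a suffixed probe set, gst-27 was at 2705 ± 222 (SD, n = 3), 2312 ± 132 (SD, n = 4) and 2350 ± 408 (SD, n = 3) in the same order of groups. Its spread was widest in N2. With median centring gst-27 was called higher with skn-1 RNAi than with control RNAi (0.37).

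The 3 genes too dim to test were gst-17, gst-18 and gst-33. Mean signals of gst-17 were 2.41, 6.66 and 2.17 in skn-1 RNAi mutants, control RNAi mutants and N2, and those of gst-18 were 4.73, 8.31 and 11.7. For gst-33 the signals were 7.3 to 35.1 with skn-1 RNAi, 16.5 to 39.1 in the mutant on control RNAi and 4.04 to 7.62 in N2. Its 4 control RNAi mutant arrays lay above those of N2.

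Genes that supply glutathione or export its conjugates form a list of 12. In the mutant against N2, 8 rose and 0 fell, where 17.4% and 10.1% of all tested probe sets did. With skn-1 RNAi against control RNAi 7 fell and 0 rose, beside 12.6% and 9.99% of all. With skn-1 RNAi 3 were above N2 and 0 below, beside 3.88% and 2.46%. The largest changes in the mutant were in gcs-1, for the first and limiting step of glutathione synthesis (2.51), mrp-1, a conjugate exporter (2.16), and gss-1, glutathione synthetase (1.38). With skn-1 RNAi these fell by 1.60, 0.84 and 1.08 on the log2 scale. The median of the list was 0.83 in the mutant against N2 (0.01 over all tested probe sets) and -0.68 with skn-1 RNAi against control RNAi (-0.01 over all). A list of 11 relatives that share the transferase fold, 8 of them tested, split into 2 higher and 2 lower in the mutant. The cadmium-response genes cdr-1 (1.05) and cdr-4 (-1.09) were at its ends, and its median was -0.05.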

How the data were processed

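Worms of 3 groups were measured on 10 Affymetrix C. elegans arrays, 1 array a sample, and replicates were not pooled. Per the submitters' processing notes the authors used MAS5 (no version given), and the deposited table holds its signals as linear intensity. Their trimmed means (2% off each end) were 500.11 to 500.14 on every array, so the authors had scaled each array to 1 level. The labels call the samples biological replicates.

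Gene names came from the platform annotation, which gives 1 gene for 20766 probe sets, several for 887 and none for 895 of the 22548 that are not controls. Signals were taken to log2 after adding 19 (about the 20th percentile of the signals). Of the probe sets, ranked on their mean after that step, the dimmest 30% were dropped and 15783 tested. All 3 groups entered 1 fit with limma 3.58.1 in R 4.3.3 (lmFit, eBayes with an intensity trend, two-sided). Within each comparison the Benjamini-Hochberg method adjusted p over the 15783, and a call means an adjusted p under 0.05. Intervals are 95% and unadjusted. Probe sets with a suffix letter (suffixed; 8 of 33 members) can carry signal of related transcripts. The fit was tested on simulated data.

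All members could be named. Array values are given for called members among the 8 largest rises or 5 largest falls of a comparison and for the omega, kappa and zeta classes. Outside this rule, gst-33 and gst-41 are given by range and gst-1, gst-17, gst-18, gst-26 and gst-27 by mean, chosen after their values were seen. The members and lists were chosen with earlier results of these data known. No strong pairing of the arrays by replicate number was seen, though only 9 same-number pairs could be compared. Residual correlations ran from -0.16 to 0.18 in those pairs and from -0.17 to 0.17 in other pairs. Figures used matplotlib 3.10.9 in python 3.11.15.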

Additional observations from a re-analysis of the deposited data

Results flagged for a closer look

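One array stood apart within the only group of 4. For gst-20, wdr-23 control RNAi replicate 2 gave 3447, while the other 3 arrays lay between 3056 and 3112, and the gap was 0.857 of the group's range. The same check was made for each of the 30 tested transferases, and chance flags about 1 in 20 groups. All 4 values were far above those of N2 (233 to 303).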

How the results depend on the processing

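Under the alternatives (1 or 64 units added, no filter on dim probe sets, quantile normalization, median centring, no suffixed probe sets, no intensity trend, a replicate block, and each array left out in turn), members called higher in the mutant against N2 stayed within 1.5 times of 16, members lowered by skn-1 RNAi within 1.5 times of 12, and members above N2 with skn-1 RNAi within 1.5 times of 10. With the replicate number as a block, 14 members were higher and 2 lower in the mutant against N2, 0 higher and 12 lower with skn-1 RNAi against control RNAi, and 11 higher and 1 lower with skn-1 RNAi against N2; the block changed the calls of gst-22 and gst-43, and no other member's. Members lower in the mutant numbered 4 with median centring (beside 29.2% of all tested probe sets) and 0 without suffixed probe sets (2 as reported). Members higher with skn-1 RNAi than with control RNAi numbered 2 with median centring (beside 21.9% of all tested probe sets). They numbered 1 with 64 units added, quantile normalization or no trend (0 as reported). Members below N2 with skn-1 RNAi numbered 0 with 1 unit added and 0 without suffixed probe sets (1 as reported). Without suffixed probe sets fewer were tested, and 2759, 2097 and 609 were called in the 3 comparisons, against 4344, 3558 and 1001. With 1 array left out the calls ranged from 2861 to 4120, from 2218 to 3536 and from 523 to 1047. They were lowest without N2 replicate 1 in the first, without skn-1 RNAi replicate 1 in the second and without skn-1 RNAi replicate 3 in the last, where leaving out skn-1 RNAi replicate 2 (588) or N2 replicate 1 (600) also cut them by over 1.5 times. Members higher with skn-1 RNAi than with control RNAi then ranged from 0 to 1, the 1 being gstk-2 without N2 replicate 2 or 3. The cause of these shifts was not tested, apart from the fewer probe sets or arrays. Signs turned in members called in no such comparison. In the mutant against N2 quantile normalization gave gst-27 0.001, gst-41 -0.018 and gstk-2 -0.009, median centring gave gst-41 -0.021, gstk-2 -0.008 and gsto-1 -0.054, and the replicate block gave gst-11 0.035. With skn-1 RNAi against control RNAi quantile normalization gave gst-23 0.02 and gst-44 0.121, median centring gave gst-23 0.038, gst-44 0.139 and gsto-1 0.083, and the replicate block gave gst-44 0.017. Against N2, gst-26 was at -0.039 with skn-1 RNAi after median centring. With 1 array left out, gst-11 ranged from -0.174 to 0.139, gst-23 from -0.284 to 0.032 and gst-27 from -0.161 to 0.079 in the mutant against N2. With skn-1 RNAi against control RNAi gst-23 ranged from -0.281 to 0.035, gst-43 from -0.079 to 0.263, gst-44 from -0.078 to 0.067 and gsto-1 from -0.25 to 0.1. With skn-1 RNAi against N2 gst-26 ranged from -0.049 to 0.083, gstk-1 from -0.1 to 0.067 and gsto-1 from -0.103 to 0.247. No value exists for 7 suffixed members without suffixed probe sets, nor for gst-44 where leaving out an array put it under the dim filter. Dim genes, among them gst-8, gst-9, gst-19, gst-32 and gst-44, are the least precise.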
